A study of Mus musculus with 6 samples.

Results

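The genes described here encode cell adhesion and axon guidance molecules. They were chosen by name, as the protein-coding mouse genes whose symbols start with Cdh, Pcdh, Cntn, Nrxn, Nlgn, Ncam, Lrrtm, Epha, Ephb, Efna, Efnb, Sema, Plxn, Robo or Slit followed by a number or letter, with L1cam added. This rule took 187 of the 21887 nuclear protein-coding genes placed on a chromosome of GRCm38.p6, the assembly behind the mm10 build of the files. Taken by its letters it also brought in Cdhr, Cntnap and Slitrk genes, which are given apart from the Cdh, Cntn and Slit genes.

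The study pulled AGO2 from mouse cortex at postnatal day 14. AGO2 is the protein that carries a microRNA (miRNA) to the messenger RNAs it pairs with. The mice held a conditional Spy3-AGO2 allele, whose tag binds SpyCatcher3 on a resin, and a VGLUT2-Cre driver that switched it on, and the cell type on the labels is pyramidal neurons, which are excitatory projection cells. The tag marks cells in which the driver is or was active, not a sorted population. Of the 6 libraries, 2 hold AGO2-bound miRNAs, 2 hold AGO2-bound target RNA and 2 hold input from whole lysate. All came from animals of this 1 genotype and age, and the labels do not say whether replicates were separate animals. The target side was used here as 1 deposited list of 2197 peaks, which carries no value for any single library. A peak is a stretch of the genome where the authors' caller found target reads piled up. The score is 0 for every peak, so the data for a gene are the number, position, strand and width of its peaks, with no replicate check and no test between groups.

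Cadherins and protocadherins hold membranes of neighbouring cells together. Contactins, Ncam1 and L1cam are immunoglobulin adhesion molecules of axons. Neurexins on the presynaptic side bind neuroligins, Lrrtm proteins and other partners across the synapse. Ephrins, semaphorins and Slits are guidance cues, read by Eph receptors, plexins and Robo receptors on the growing axon. AGO2 with its miRNA most often represses a messenger RNA through sites in the 3′ untranslated region, near the 3′ end of the gene.

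A peak fell in 36 of the 187 genes (19.3%, exact 95% interval 13.9 to 25.6), where a peak was credited to a gene if its midpoint lay in the gene's span. Among all protein-coding genes, 4.30% had at least 1 peak (941 of 21887). Of the 36, 21 were the gamma protocadherins (the Pcdhga, Pcdhgb and Pcdhgc genes), whose spans overlap one another and which were all credited with the same 2 peaks. With each of the alpha, beta and gamma protocadherin clusters counted as 1 locus, 16 of 133 loci had a peak (12.0%, exact 95% interval 7.04 to 18.8). The distinct peaks numbered 25, of which 23 lay in 15 genes outside the clusters, and none of those 23 lay in the span of any other gene. At least 2 peaks were credited to 26 of the 187 genes, among them the 21 gamma protocadherins, Cntn1, Epha4, Pcdh7 and Slitrk1, against 1.36% of all protein-coding genes.

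Adhesion and guidance genes are long, and the share of genes with a peak was higher among long genes. The median span was 78.2 kb over the 130 genes outside the protocadherin clusters and 17.1 kb over all other protein-coding genes. Among the 130, the 63 with a span of at least 100 kb had a peak in 11 cases (17.5%, exact 95% interval 9.05 to 29.1), and 13.8% of all protein-coding genes of that length had one. Of the 55 genes of 10 to 100 kb, 3 had a peak (5.45%, interval 1.14 to 15.1), against 4.14%, and of the 12 shorter ones 1 did (8.33%, interval 0.211 to 38.5), against 1.63%. In each of these 3 classes the interval held the share of all protein-coding genes, so the share of 12.0% is not read as particular to these families. Expression was not measured in the files used here, and its part in these shares was not tested.

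**Figure D1:**
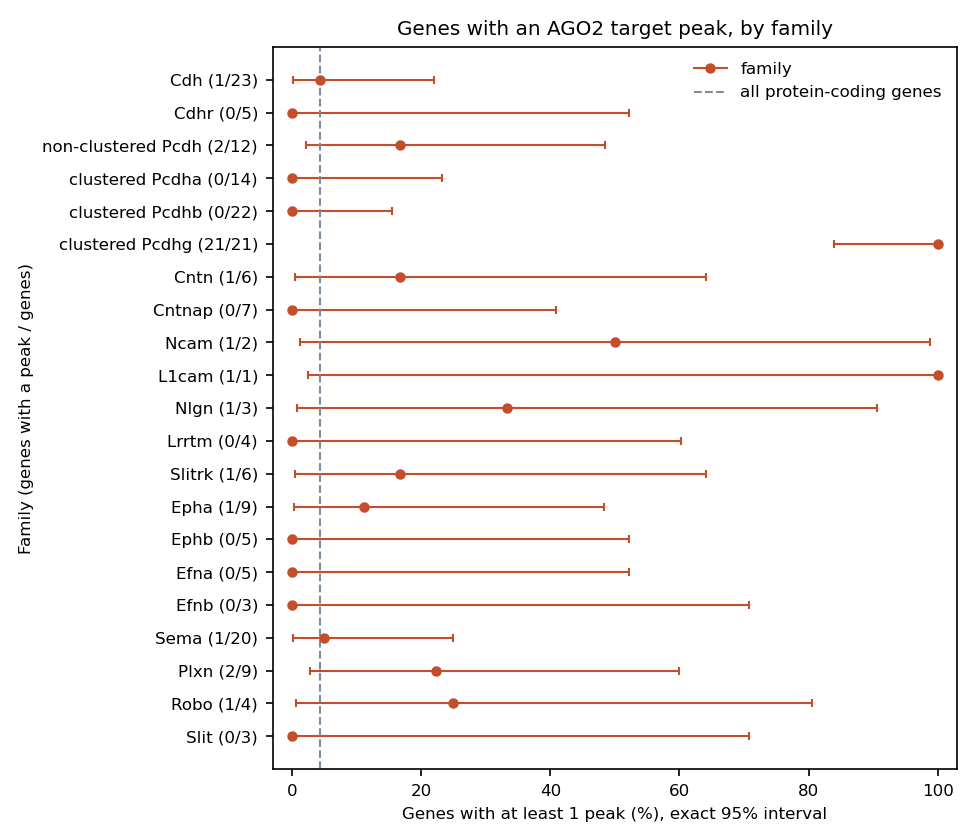
Share of genes with at least 1 peak (x axis, percent, with exact 95% intervals) in each of 21 families (y axis), with the 4.30% of all protein-coding genes as a dashed line. Points at 0 are the 9 families with no peak, and the gamma protocadherins stand at 100% because all 21 share the same 2 peaks, and L1cam because it is 1 gene with its own peak. The intervals of the alpha and gamma protocadherins treat overlapping genes as separate.

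Of 23 Cdh genes 1 had a peak (4.35%, exact 95% interval 0.110 to 21.9), a share near the 4.30% of all protein-coding genes, and of 5 Cdhr genes 0 did. That gene was Cdh23, a large cadherin best known from the tip links of hair cells in the inner ear. Its single peak was 25 nt wide and lay 287 kb upstream of the end of the span. Cdh2, the N-cadherin of neurons, had no peak, nor did the long genes Cdh13 (span 1.18 Mb) and Cdh12 (1.15 Mb).

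The clustered protocadherins give each neuron a surface identity, and their alpha and gamma genes each join a variable first exon to constant exons at the 3′ end of the cluster. Both gamma peaks lay at that shared end. The gamma genes run over 180 kb of chromosome 18 (37661775 to 37841873), and the peaks, 141 and 190 nt wide on the plus strand, lay at 37840327 to 37840467 and at 37840936 to 37841125. Their midpoints were 1.48 and 0.843 kb from the end, and the gap between them was 468 bases. The 190 nt peak was the widest of the 25. Read along each of the 21 genes, which are 22.3 to 180 kb long, they stood at 93.4% to 99.5% of the span. Besides the span of any 1 gamma gene, the 141 nt peak lay in 24 gene spans and the 190 nt peak in 23. These counts take genes of every type and include spans outside the 21. No peak can therefore be assigned to 1 gamma gene. None of the 14 alpha genes had a peak, although they too end in a shared constant region. The interval for them (up to 23.2%) treats overlapping genes as separate and is therefore too narrow. None of the 22 beta genes, which are short and stand alone, had a peak (interval up to 15.4%).

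Outside the clusters, 2 of 12 protocadherin genes had a peak. Pcdh7 (chromosome 5, 57716145 to 58133236) had 2 near its end, a 40 nt peak at 58131357 to 58131396 and a 52 nt peak at 58133157 to 58133208. The second had its midpoint 53.5 bases from the end of a span of 417 kb. Pcdh15, a partner of Cdh23 in the tip link, carried a 30 nt peak at 51.8% of a span of 1.55 Mb, 749 kb from the end.

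Of the 9 immunoglobulin adhesion genes, 3 had a peak, where 4.30% of all protein-coding genes and 13.8% of those of at least 100 kb did. The difference was not tested. The genes were Cntn1, Ncam1 and L1cam, and each had a peak at most 284 bases from the end of its span. Cntn1, a contactin of axons and of the paranodes of myelinated fibres, had 2 peaks (chromosome 15, 92051152 to 92341967, plus strand). A 55 nt peak at 92341656 to 92341710 lay 284 bases from the end, and a 126 nt peak at 92255846 to 92255971 lay 86.1 kb upstream, at 70.4% of the span. Ncam1, the neural cell adhesion molecule (chromosome 9, 49502129 to 49799393), had 1 peak of 73 nt on the minus strand, at 49502163 to 49502235. Its midpoint was 70.0 bases from the end of a span of 297 kb. L1cam, which mediates axon growth and bundling (chromosome X, 73853778 to 73880838), had 1 peak of 35 nt on the minus strand, at 73853805 to 73853839, 44.0 bases from the end. None of the other 5 Cntn genes had a peak, nor did Ncam2 or the 7 Cntnap genes, among them Cntnap2, the longest gene of the whole set at 2.24 Mb.

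Nrxn3, which encodes a presynaptic neurexin, had 1 peak, 24 nt wide, on the minus strand of chromosome 12 at 89986645 to 89986668. The gene runs along the plus strand, so this peak was antisense to it. Read along the strand of the peak it stood 1.26 Mb from the end of the span, the farthest of the 25, and read along the gene it stood at 78.4%.

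Of the neurexin partners, Nlgn2, the neuroligin of inhibitory synapses (chromosome 11, 69823123 to 69837784), had an 87 nt peak at 69823125 to 69823211. The nearer edge of that peak lay 2 bases from the end of the span. Nlgn1 and Nlgn3 had no peak, nor did the 4 Lrrtm genes. Slitrk1, a postsynaptic leucine-rich repeat protein that promotes synapse formation (chromosome 14, 108909988 to 108914239), had 2 peaks of 88 and 134 nt, at 108910172 to 108910259 and 108910665 to 108910798. They lay 228 and 744 bases from the end of a span of 4.25 kb, the only gene under 10 kb in the set with a peak. The other 5 Slitrk genes had none.

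Among guidance genes, receptors carried peaks in 4 of 27 genes (14.8%, exact 95% interval 4.19 to 33.7) and ligands in 1 of 31 (3.23%, interval 0.0816 to 16.7). Both intervals held the 4.30% of all protein-coding genes, and the difference between receptors and ligands was not tested. The 4 receptor genes with a peak are among the 12 with a span of at least 100 kb, and the interval for those 12 (9.92% to 65.1%) held the 13.8% of all protein-coding genes of that length. Plxna4 counts only through a peak of 24 nt. Epha4, a receptor for both classes of ephrin that sends repulsive signals in axons and in dendritic spines (chromosome 1, 77367182 to 77515107), had 2 peaks on the minus strand. The 57 nt peak at 77367213 to 77367269 lay 59.0 bases from the end, and the 73 nt peak at 77373393 to 77373465 lay 6.25 kb from it. The other 8 Epha genes, the 5 Ephb genes and the 8 ephrin genes had no peak.

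Semaphorins had a peak in 1 of 20 genes (5.00%, exact 95% interval 0.127 to 24.9), near the 4.30% of all protein-coding genes. It was Sema7a, a membrane-anchored semaphorin that acts through integrins as well as a plexin (chromosome 9, 57939596 to 57962865). Its 36 nt peak at 57962818 to 57962853 had its midpoint 29.5 bases from the end, the nearest of the 25. Of the 9 plexin genes, Plxna2 had a 35 nt peak 89.0 bases from the end, while Plxna4 had a 24 nt peak at 10.3% of a span of 444 kb, 398 kb from the end. Robo2, a Slit receptor, had a 63 nt peak 3.57 kb from the end of a span of 1.56 Mb. Robo1, with a span of 1.02 Mb, had none, and neither did Slit1, Slit2 or Slit3.

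**Figure D2:**
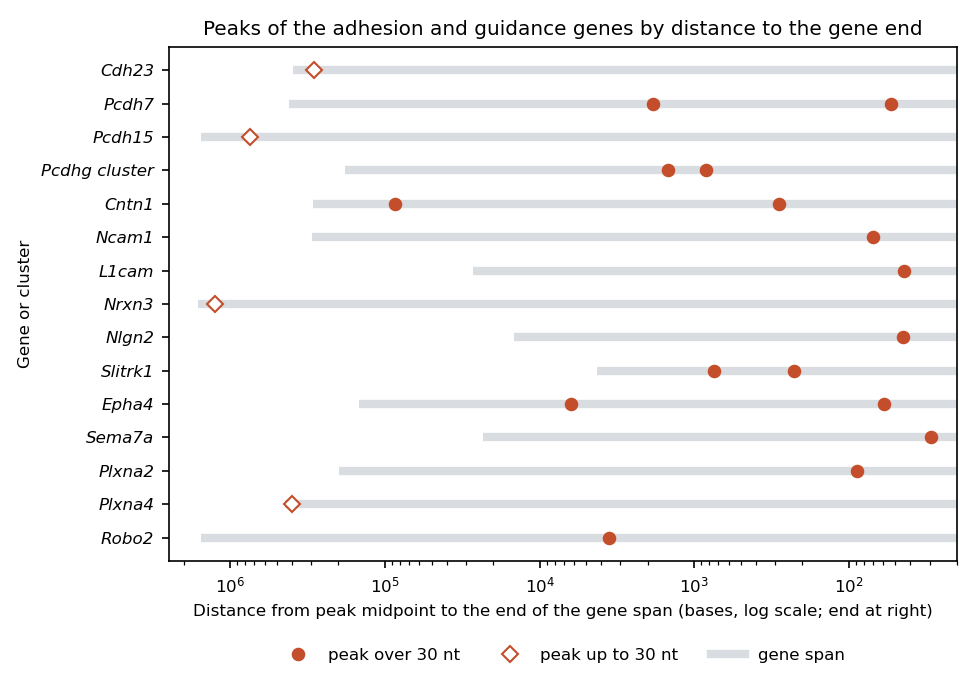
Distance from each peak's midpoint to the end of its gene span (x axis, bases, log scale, end at the right), read along the strand of the peak, for 15 of the loci with a peak (y axis), with grey bars for the spans. Filled circles are peaks over 30 nt and open diamonds the 4 narrower ones, in Cdh23, Pcdh15, Nrxn3 and Plxna4, which all stand at least 287 kb from the end.

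Over all positions, 17 of the 25 peaks (68.0%, exact 95% interval 46.5 to 85.1) lay in the last 10% of the span, and 1021 of the 1546 peaks in exactly 1 other protein-coding gene did (66.0%, interval 63.6 to 68.4). At least 1 peak in the last 10% was found in 12 of the 133 loci, against 2.81% of all protein-coding genes. The median distance to the end was 1.86 kb in the adhesion and guidance genes and 1.63 kb in the others. Both ends of the range were well filled. Within 100 bases of the end lay 7 of the 25 (28.0%, interval 12.1 to 49.4), and 173 of the 1546 (11.2%, interval 9.66 to 12.9). The 7 were single peaks in Epha4, Plxna2, Pcdh7, Ncam1, Sema7a, Nlgn2 and L1cam. Over 50 kb from the end lay another 7 (28.0%), among them single peaks in Cdh23, Pcdh15, Nrxn3, Plxna4 and Cntn1, and 150 of the 1546 (9.70%, interval 8.27 to 11.3).

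A peak can lie over 50 kb from the end only in a span longer than that, so long genes were also compared apart. In spans of at least 100 kb, 7 of 20 peaks lay over 50 kb from the end (35.0%, exact 95% interval 15.4 to 59.2), and 127 of 566 did in other genes of that length (22.4%, interval 19.1 to 26.1). The share within 100 bases in the same long spans was 4 of 20 (interval 5.73% to 43.7%), against 35 of 566 (6.18%, interval 4.34 to 8.50). These intervals treat peaks of 1 gene as independent, and the differences were not tested. Spans include introns, and no exon models were used here, so a peak far from the end can lie in an intron, in an upstream exon or at the end of a shorter transcript.

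Width divided the peaks in the same way as position. The 4 peaks of up to 30 nt lay 287 kb to 1.26 Mb from the end, 0 of them in the last 10%, while 17 of the 21 wider peaks lay there (81.0%, exact 95% interval 58.1 to 94.6). In the other protein-coding genes 47 of 278 narrow peaks (16.9%, interval 12.7 to 21.8) and 974 of 1268 wider ones (76.8%, interval 74.4 to 79.1) lay in the last 10%. The division was therefore seen in the rest of the list too.

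For 16 of the 25 peaks the strand of the gene was given, and 15 of them lay on it. Of the narrow peaks, those in Cdh23 and Pcdh15 were among the 15, that in Nrxn3 was the exception, and the strand of Plxna4 was not given. In other genes 1007 of 1129 peaks lay on the strand of the gene (89.2%, exact 95% interval 87.2 to 90.9). Of the 122 on the opposite strand, 112 were up to 30 nt wide. What gives rise to the narrow peaks was not tested. Without them, Cdh23, Pcdh15, Nrxn3 and Plxna4 would have no peak, and 12 of 133 loci would have one (9.02%, interval 4.75 to 15.2), against 3.24% of all protein-coding genes with a peak over 30 nt.

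**Figure D3:**
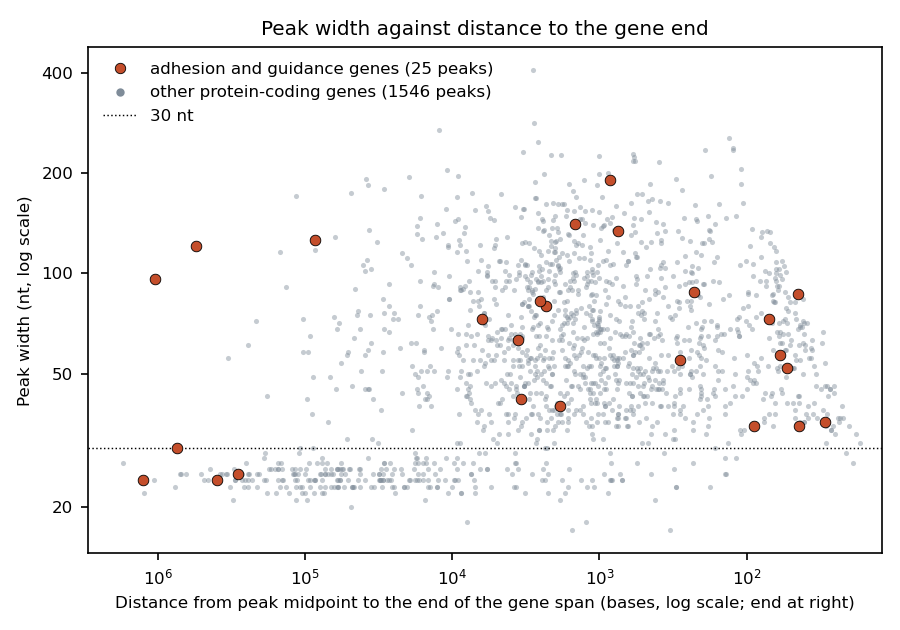
Peak width (y axis, nt, log scale) against distance from the peak's midpoint to the end of its gene span (x axis, bases, log scale, end at the right), for the 25 peaks of adhesion and guidance genes and the 1546 peaks in exactly 1 other protein-coding gene. On or below the dotted line at 30 nt the 4 adhesion and guidance peaks lie at the far left, and above it 17 of 21 lie within 5 kb of the end.

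The spans of 8 of these genes hold a miRNA hairpin, whose mature forms are listed in the 2 AGO2-bound miRNA libraries (66854 and 75658 counts over 1978 listed miRNAs). Such counts measure the miRNA and not its host gene. Mir6237 lies on the strand opposite to its host, Cntn5. Slit2 and Slit3 are the hosts of the only hairpins among the 8 with any count, Mir218-1 (chromosome 5, 48223942 to 48224051) and Mir218-2 (chromosome 11, 35616816 to 35616925), each on the strand of its host. Both yield the same miR-218-5p, so its counts cannot be split between Slit2 and Slit3, whereas the other arms differ in sequence. The RefSeq sequences on GRCm38.p6 are shown to make this plain, 5′ to 3′, with the seed, bases 2 to 8, in capitals.
miR-218-5p: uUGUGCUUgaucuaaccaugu
miR-218-1-3p: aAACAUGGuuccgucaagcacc
miR-218-2-3p: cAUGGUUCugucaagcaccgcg

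miR-218-5p had 116 counts in replicate 1 and 144 in replicate 2. Its share was 0.174% (exact 95% interval 0.143 to 0.208) and 0.190% (interval 0.161 to 0.224), a mean of 0.182% ± 0.0119 (SD, n = 2), and it ranked 87 and 84 by count. The arms that tell the hosts apart were near the floor, with 1 and 2 counts for miR-218-1-3p of Slit2 and 1 and 0 counts for miR-218-2-3p of Slit3, so they give no order of the hosts. The other 6 hairpins, in Epha4, Sema4a, Cntn5, Ephb1, Plxnb2 and Robo2, had 9 mature forms listed at 0 counts in both libraries, so that, taking 3 counts as the limit, their share could reach 0.00449% (replicate 1) or 0.00397% (replicate 2). These intervals and limits cover counting error only, and by the name of the deposited tables duplicate reads were kept. Robo1 is a described target of miR-218 in human cells, as background, and it had no peak here.

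Related genes outside the rule were taken from 6 lists of guidance and adhesion genes, all 123 of which matched the annotation, and 24 had a peak (19.5%, exact 95% interval 12.9 to 27.6), against 4.30% of all protein-coding genes. Many of these genes are long too. Of the 68 with a span of at least 100 kb, 15 had a peak (22.1%, interval 12.9 to 33.8), and that interval held the 13.8% of all protein-coding genes of that length. The rest of the 24, among them Cfl1, Thy1 and Clstn1, are shorter, and the comparison of long genes does not cover them. The share with a peak among the shorter listed genes was not computed apart, so it is not said to be near the shares that follow. Of all protein-coding genes, 4.14% of those of 10 to 100 kb and 1.63% of those under 10 kb had a peak. Other guidance receptors and ligands, with the netrin receptor Dcc, the neuropilins and the Unc5 genes, had peaks in 0 of 18, which allows a share of up to 18.5%. The intracellular partners of guidance receptors had peaks in 6 of 28. These were Dpysl2, a collapsin response mediator that acts downstream of semaphorins (6 peaks), the kinase gene Gsk3b (4), Srgap3, which acts in Slit and Robo signalling (3), the actin-severing cofilin Cfl1 (2), the Rac regulator Chn1 (1) and the kinase gene Fyn (1). All of these but 1 of the 3 Srgap3 peaks lay in the last 10% of the span.

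Other synaptic adhesion families had a peak in 12 of 29 genes (41.4%, exact 95% interval 23.5 to 61.1), against 4.30% of all protein-coding genes. Of the 15 with a span of at least 100 kb, 5 had one (33.3%, interval 11.8 to 61.6), and the interval held the 13.8% at that length. Among the shorter genes, Adgrl1, Flrt2, Lrrc4, Lrrc4b, Cadm3, Clstn1 and Clstn3 had a peak. Flrt1, Flrt3, Lrfn1, Cadm4, Ptprf, Ptprs and Igsf8 had none. Of all protein-coding genes, 4.14% of those of 10 to 100 kb and 1.63% of those under 10 kb had a peak. The part of gene length in the 41.4% was not tested. Counting only peaks over 30 nt left 9 of the 29 (31.0%, interval 15.3 to 50.8), against 3.24%. The calsyntenin gene Clstn1 led with 8 peaks, followed by the latrophilin gene Adgrl1 with 4 and by Tenm4, Lrrc4b and Cadm2 with 3 each. Flrt2, Lrrc4, Cadm3 and Clstn3 had 1 each, over 30 nt wide, while the single peaks of Tenm3, Lrrc4c and Cadm1 were 22, 25 and 21 nt wide. Immunoglobulin adhesion molecules outside the rule had peaks in 4 of 15, Ntm, Opcml and Thy1 with 2 each and Lsamp with 1. Cadherin partners had a peak in 1 of 14, Celsr1, with 0 in the catenin genes, and integrins and matrix genes in 1 of 19, the tenascin gene Tnr. Those peaks were narrow too, 24 nt in Celsr1 and 22 nt in Tnr. These lists were written with earlier results of these data known, so no test was made on them.

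**Figure D4:**
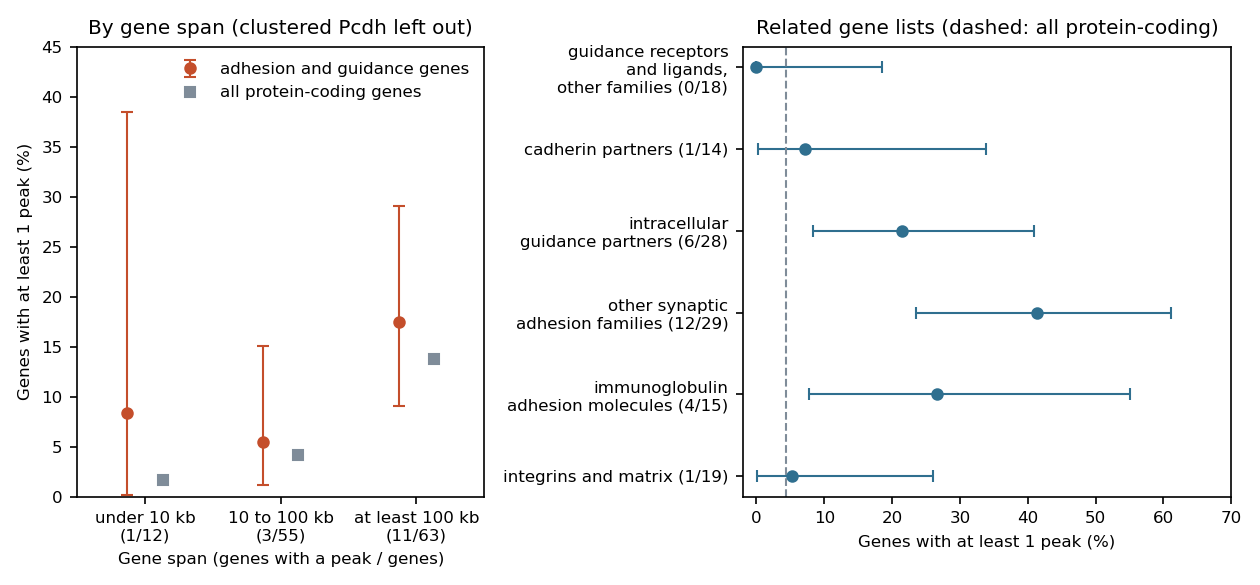
Left, share of genes with at least 1 peak (y axis, percent) in 3 classes of gene span (x axis) for the adhesion and guidance genes outside the protocadherin clusters (circles, exact 95% intervals) and for all protein-coding genes (squares). Right, the same share (x axis, percent, exact 95% intervals) in 6 lists of related genes (y axis), from 0 in guidance receptors and ligands of other families to 41.4% in synaptic adhesion families, with the 4.30% of all protein-coding genes as a dashed line.

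The labelled cell type was checked against peaks in marker genes, which are present or absent as peaks and do not measure expression. Neuronal markers had 8 peaks in Snap25, 14 in Syt1, 5 in Slc17a7 and 4 in Camk2a, but 0 in Slc17a6, the gene of VGLUT2 itself. Of 4 interneuron markers Sst had 1 peak and Gad1, Gad2 and Pvalb had 0. Astrocyte markers had 45 peaks in Slc1a2 and 0 in Slc1a3, Aqp4 and Gfap, and oligodendrocyte markers had 2 in Mbp, 1 in Cnp and 0 in Mog. The 3 microglia and 3 endothelial markers had 0. The part of RNA from other cell types in the peaks of adhesion and guidance genes, some of which glia also express, was not tested.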

How the data were processed

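Target peaks were 1 deposited list on mm10, whose score column is 0 for every peak in the authors' file. Among the tools listed in the submitters' processing notes, without their roles, are STAR 2.5.2a, Bowtie2 2.4.2 and UMI-tools. How peaks were called, on which libraries and with what use of the input is not given in the sources used here. Raw counts per miRNA were used as deposited by the authors, without removal of duplicates per the file names.

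Gene spans came from RefSeq on GRCm38.p6, and gene strand from its promoter table, which gave it for 100 of the 187 genes. A peak in a small noncoding RNA gene was left out of its host gene. Positions were read along the strand of the peak, counting from 1, and the gamma protocadherins were 1 locus. Shares have exact (Clopper-Pearson) 95% intervals, computed with SciPy 1.17.1 in Python 3.11.15. Crediting was tested on simulated data.

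The members and lists were chosen with earlier results of these data known. Genes with a peak are named, apart from some that are not reported here, as are genes without one from families with no peak or with the longest spans, with coordinates for genes with at least 2 peaks, the 4 markers Cntn1, Epha4, Ncam1 and L1cam, and the peaks nearest to and farthest from an end. Some further coordinates, names and comparisons of peak width, of span within the lists, strand and hosted miRNAs were chosen after their values were seen. Seed sites and exons were not analysed here for want of the genome's bases and of transcript models.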

Additional observations from a re-analysis of the deposited data

How the results depend on the processing

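The share of these genes with a peak, 19.3%, rests on the overlapping gamma protocadherins. It was 8.02% with midpoints in 1 protein-coding span only and also in 1 span of any gene type only. These single-span settings kept all 187 genes in the denominator, while the shared peaks of the gamma genes could not count. The 8.02% is therefore not on the same footing as the next values. The share was 12.0% with each protocadherin cluster as 1 locus and 11.5% with clustered protocadherins left out. On the annotated strand, over the 100 genes with a strand in the promoter table, which leave out the clusters on chromosome 18, it was 11.0%. The 2 settings added after the data were seen, peaks over 30 nt and peaks in the last 10% with clusters as 1 locus, each gave 9.02%. Under each of the settings listed here the share in all other protein-coding genes was below that of these genes. The 8 other settings stayed within the interval of 13.9 to 25.6. All of these counted each gamma gene on its own with the shared peaks, so they cannot show that the share holds without that overlap. The share of peaks in the last 10% of the span stayed within its own interval under all 8 alternatives, from 62.5% to 81.0%. The planned seed and exon settings were not run. No paired analysis was possible because the peak list holds no values for single libraries, and for the same reason no replicate could be left out.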

Other observations

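Of the peaks that lay in no gene span, 2 stood within 10 kb of an adhesion or guidance gene, both downstream of it when read along the strand of the peak. A 104 nt peak on the minus strand of chromosome 6, at 32144277 to 32144380, lay 162 bases beyond the end of Plxna4, whose only peak inside its span is the 24 nt one 398 kb from that end. A 23 nt peak on the plus strand of chromosome 9, at 57968742 to 57968764, lay 5.88 kb beyond the end of Sema7a. Whether either belongs to a longer transcript of the gene was not tested.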
